A study of Homo sapiens with 4 samples.

Results

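TIA1, TIAL1, RBM5, RBM6, RBM10, EWSR1, TAF15 and TARDBP are 8 genes for RNA-binding proteins that act on splicing, and several of them are also found in stress granules. Their skipped exons were followed in MDA-LM2 cells after depletion of SNRPB2 by small interfering RNA. MDA-LM2 was derived from MDA-MB-231, a human breast cancer line, by selection for growth in the lung. An event was taken when its skipped exon shared a boundary with an exon of one of the genes in GENCODE release 29. This gave 46 events over 43 skipped exons, of 38121 skipped exons in 13033 genes. The 8 genes were selected with the inclusion levels and Bayes factors of this same comparison known, so their values are given as a description and no test is made on them.

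The siSNRPB2 group comprised 2 libraries of MDA-LM2 cells in which SNRPB2 was knocked down, and the siCtrl group 2 libraries of MDA-LM2 cells given control siRNA. All 4 libraries were made from total RNA taken 48 h after lipid transfection, and the labels report a knockdown above 95% by quantitative PCR for both of the siRNAs used. The sources used here do not say which library received which siRNA. For each event and group the files give a single inclusion level, ψ, which is the fraction with the exon among transcripts of the event's 2 isoforms. No difference therefore has a replicate check, and no SD or n can be given. ψ values, their intervals, the ψ differences and the Bayes factors are the authors'. The sources used here do not state the level of the intervals.

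SNRPB2 encodes U2B'', a component of the spliceosome's U2 particle, which pairs with the branch point of an intron and so helps to define the 3' splice site. TIA1 and its paralogue TIAL1 bind uridine-rich stretches next to weak 5' splice sites and assist the U1 ribonucleoprotein there, and they form stress granules in stressed cells. RBM5, RBM6 and RBM10 are related regulators of exon choice, known for exons of apoptosis genes. EWSR1 and TAF15 belong to the FET family, which joins a low-complexity amino-terminal part to an RNA-binding part and is known from sarcoma gene fusions. TARDBP encodes TDP-43, which represses inclusion of unannotated exons and limits its own messenger RNA through the 3' untranslated region (UTR). Transcripts of such regulators often carry exons whose inclusion or omission brings in an early stop codon, and messages of that kind are known substrates of nonsense-mediated decay.

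The siSNRPB2 file held 93580246 reads assigned to 42670 events, and the siCtrl file 100579230 reads assigned to 42159 events, where a read can count on several overlapping events. Reads that fitted only the isoform with the exon (inclusion-only) or only the isoform without it (exclusion-only) were taken as informative, and an exon was assessed with at least 20 of them in each file. No event in the files was assigned to SNRPB2, so its level was not analysed here. Of 14 marker genes of this and other cell types, 5 had an event. CD44, a surface protein abundant in this line, had 38883 reads in siSNRPB2 and 50227 in siCtrl, and KRT8, an epithelial keratin, had 11312 and 13755. ANXA1, an annexin abundant in such cells, had 235 and 240 reads. The leukocyte marker PTPRC had 8 reads in siSNRPB2 and 51 in siCtrl, and ESR1, the oestrogen receptor of luminal breast cells, had 10 and 1. The part of other cells in the results was not tested.

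In siSNRPB2 cells TIA1 transcripts took up an exon of 119 nt that siCtrl cells mostly left out. A coding exon of RBM5 and one of RBM6 had a lower ψ than in siCtrl cells. TAF15 exon 4 had a higher ψ and exon 8 a lower one, and TARDBP had fewer reads of an exon inside the last exon of its principal transcript. At these RBM6, TAF15 and TARDBP exons no exclusion-only read was seen in either file, so skipping was not read directly. Of the 43 skipped exons, 35 were assessed and 8 had too few informative reads. An exon was called when its Bayes factor, the authors' ratio of evidence for a difference over none, was at least 10 and its ψ difference, siSNRPB2 minus siCtrl, was at least 0.1 in size. By this rule 4 of the 35 exons were called lower in siSNRPB2 and 4 higher. Over all 18682 assessed exons of the files, 7.61% were called lower and 7.13% higher, which is read as background only, since the genes were chosen on this comparison. The lower exons were in RBM5, RBM6, TAF15 and TARDBP, and the higher ones in TIA1, in RBM5 and, as overlapping forms of 1 exon, in TAF15. No assessed exon of TIAL1, RBM10 or EWSR1 was called.

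**Figure D1:**
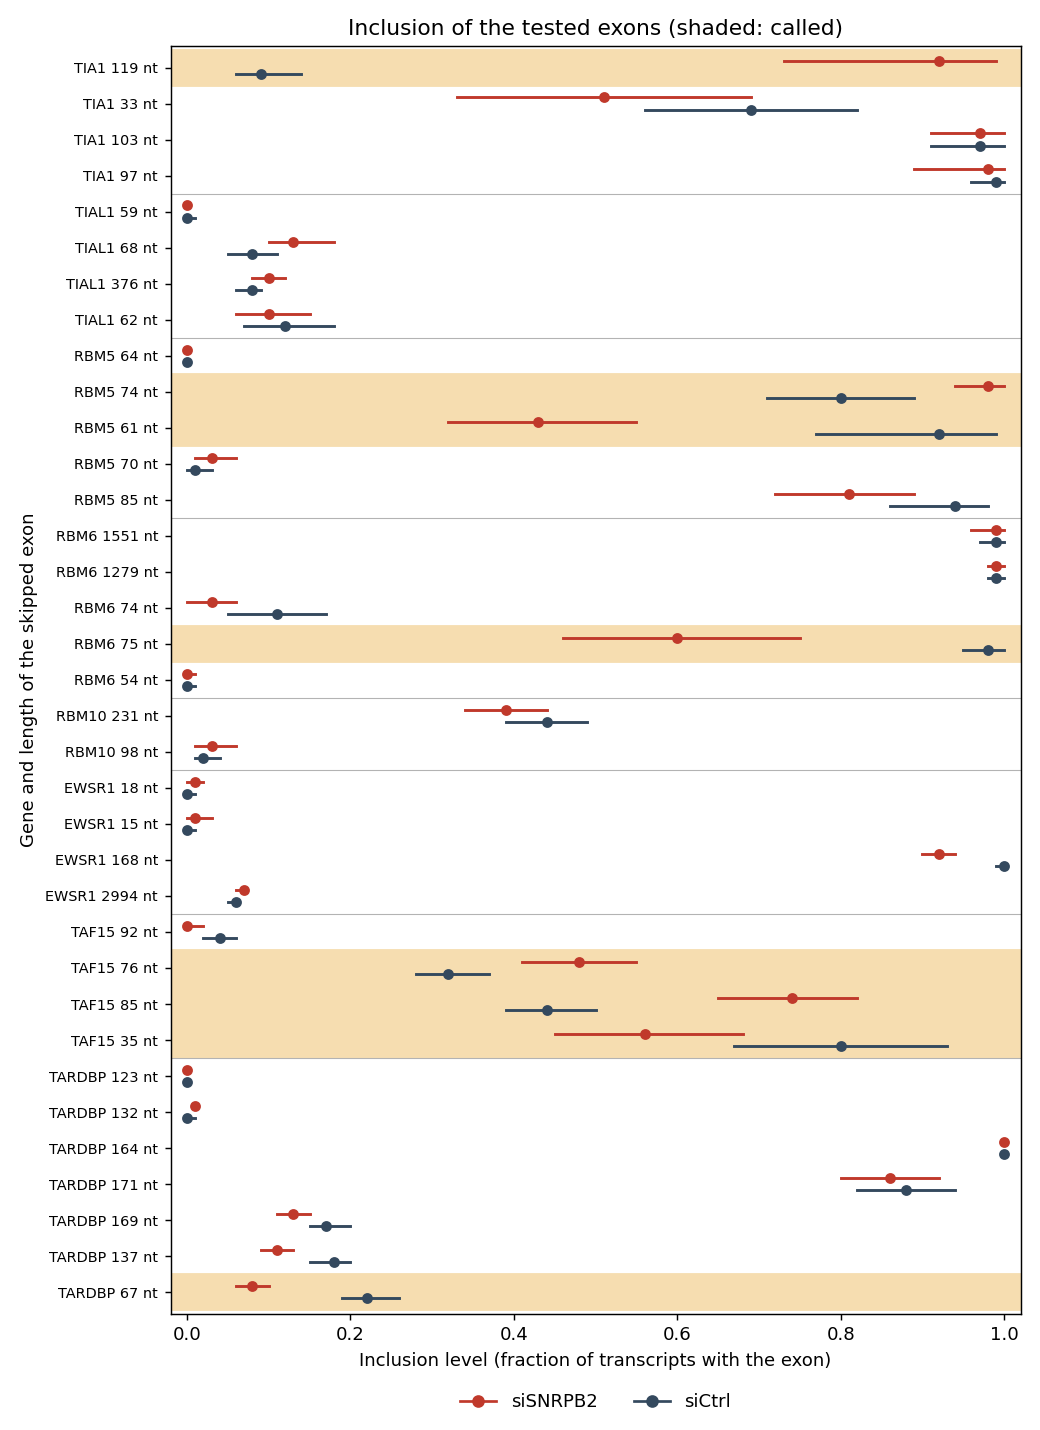
Inclusion level ψ (fraction, horizontal axis) of each assessed exon of the 8 genes, in siSNRPB2 and in siCtrl, with bars for the authors' interval. The TIA1 exon of 119 nt lies at 0.92 in siSNRPB2 against 0.09 in siCtrl, and the RBM5 exon of 61 nt at 0.43 against 0.92, while 22 of the 27 exons that were not called differ by no more than 0.05.

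The median ψ difference was 0 over the 35 exons and 0 over all assessed exons, and the median size of the difference was 0.02 against 0.03. The intervals of the groups did not overlap at 9 of the 35 exons, 7 of them called, against 20.8% of all assessed exons. In 10 exons ψ was at most 0.05 in both files, in 5 it was at least 0.95 in both, and the other 20 lay between or crossed these bounds. The median exon was 85 nt long, against 121 nt over all assessed exons, and the exons ran from 15 to 2994 nt. It had 164 informative reads in siSNRPB2 and 215 in siCtrl, against 137 and 158 over all assessed exons. Splice sites were not analysed here, since no genome sequence was used.

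Of the 8 called exons, 6 lie whole in the coding sequence of the gene's principal transcript, as do 17 of the 35 assessed exons. The RBM6 exon of 75 nt has a length that is a multiple of 3, and the other called exons do not. Of the 35 assessed exons, 12 have such a length. The TARDBP exon of 67 nt lies in the 3' UTR of the principal transcript and holds the end of the coding sequence of TARDBP-211, the 1 transcript annotated with it as an exon. These counts were not set against all assessed exons of the files, and nothing particular to the called exons is read from them.

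TIA1 showed the largest shift among the 8 genes. A 119 nt exon, at chr2:70228344-70228462 (hg38, minus strand), is annotated in TIA1-211, a transcript labelled as a substrate of nonsense-mediated decay, and not in the principal transcript TIA1-205, where it falls in the intron between exons 5 and 6. Just before it lies exon 5, 33 nt at chr2:70229059-70229091, which codes for the 11 residues that separate the known TIA1a and TIA1b isoforms. Both are printed 5' to 3' because the reads of the gene sort around them, with the exon in capitals and 15 bases of each flanking exon of its event in lower case, from GENCODE release 29 transcripts.
TIA1 119 nt exon: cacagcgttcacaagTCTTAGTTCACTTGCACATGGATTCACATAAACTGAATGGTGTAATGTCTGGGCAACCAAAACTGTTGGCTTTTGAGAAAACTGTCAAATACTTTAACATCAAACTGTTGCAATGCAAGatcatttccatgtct
TIA1 33 nt exon: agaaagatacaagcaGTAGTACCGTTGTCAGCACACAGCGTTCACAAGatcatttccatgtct

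The 119 nt exon had ψ of 0.92 in siSNRPB2 (interval 0.73 to 0.99) and 0.09 in siCtrl (0.06 to 0.14), a difference of 0.83 with a Bayes factor of 1e+12, the largest value in the file. In siSNRPB2, 48 reads fitted only the isoform with it, 0 only the isoform without it, 14 either and 130 neither. In siCtrl the same classes held 20, 46, 59 and 271 reads. The exon was thus in every informative read of siSNRPB2 and in a minority of those of siCtrl, with few reads in both. As a share of informative reads, inclusion was 100% in siSNRPB2 (Clopper-Pearson 95% interval 92.6 to 100) and 30.3% in siCtrl (19.6 to 42.9), where the interval covers counting error only and takes reads as independent molecules.

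A second event holds the same 119 nt exon with exon 4 in place of exon 5 on its upstream side. There ψ was 0.60 in siSNRPB2 (0.45 to 0.76) and 0.21 in siCtrl (0.13 to 0.31), with a Bayes factor of 43540, and 10 and 11 reads skipped the exon. The inclusion-only reads were 48 in siSNRPB2 and 20 in siCtrl in both events, so the events are not independent measurements. With exon 4, inclusion was 82.8% of informative reads in siSNRPB2 (Clopper-Pearson interval 70.6 to 91.4) and 64.5% in siCtrl (45.4 to 80.8). Those share intervals overlap. The ψ difference was 0.83 with exon 5 and 0.39 with exon 4, in the same direction. The 33 nt exon itself had ψ of 0.51 in siSNRPB2 (0.33 to 0.69) and 0.69 in siCtrl (0.56 to 0.82) in the event whose downstream neighbour is exon 6, where 18 reads in siSNRPB2 held it and 10 skipped it, against 47 and 11 in siCtrl. Its Bayes factor of 0.84 did not reach the threshold. In the event whose downstream neighbour is the 119 nt exon, it had 18 inclusion-only reads in siSNRPB2 and 1 in siCtrl, with ψ of 0.84 and 0.31 and a Bayes factor of 5.69.

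**Figure D2:**
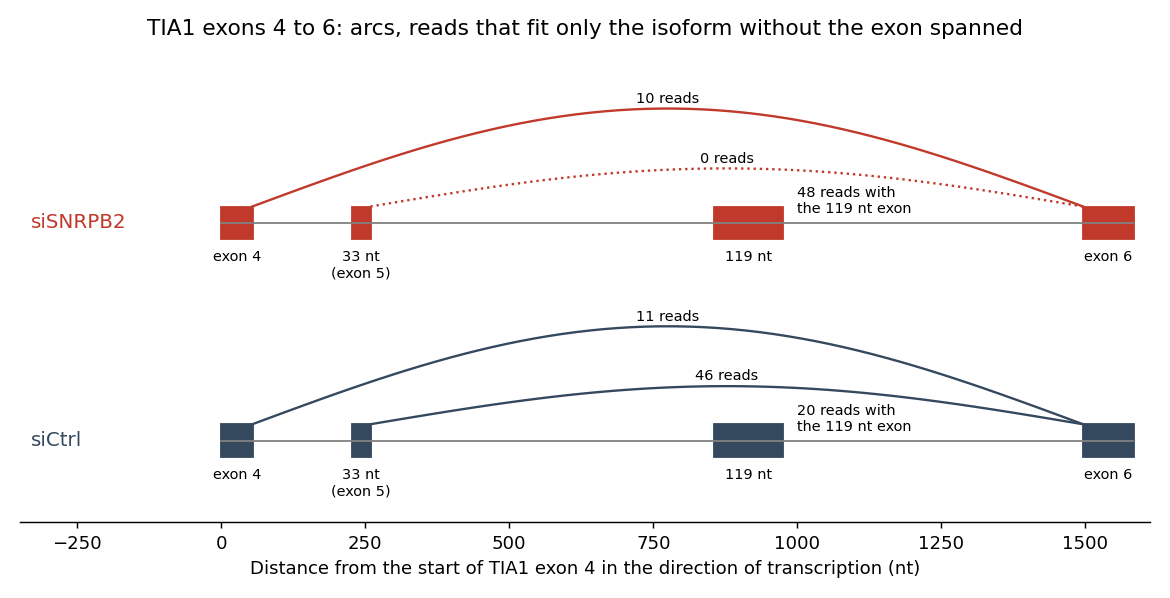
Map of TIA1 exons 4 to 6 with the 33 nt and 119 nt exons, by distance in nt from the start of exon 4, with siSNRPB2 above and siCtrl below and arcs for reads that leave the spanned exon out. The 119 nt exon has 48 reads in siSNRPB2 and 20 in siCtrl, and the arc from exon 5 to exon 6 has 0 and 46.

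Read into TIA1-205 between exons 5 and 6, the 119 nt exon shifts the frame. The first stop in frame then begins 55 nt into exon 6, and the reading frame has 161 codons in place of 386. That stop lies 667 nt before the last exon junction. The remaining assessed TIA1 exons, both forms of exon 2, differed by at most 0.01. Exon 2, of 97 nt, had ψ of 0.98 in siSNRPB2 and 0.99 in siCtrl, and its longer form of 103 nt had 0.97 and 0.97. A 109 nt and a 66 nt exon had too few informative reads, with ψ of 0.03 and 0.13 in siSNRPB2 and of 0.02 and 0.07 in siCtrl.

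In TIAL1, the paralogue of TIA1, none of the 4 assessed exons was called, and the differences ran from -0.02 to 0.05. An alternative exon of 68 nt had ψ of 0.13 in siSNRPB2 (0.10 to 0.18) and 0.08 in siCtrl (0.05 to 0.11), where 37 reads in siSNRPB2 held it and 128 skipped it, against 29 and 184 in siCtrl. A form of it with the same 3' end, 376 nt long and annotated in a nonsense-mediated decay transcript, had ψ of 0.10 and 0.08. Both are left out of the principal transcript TIAL1-205. A 62 nt exon had ψ of 0.10 in siSNRPB2 and 0.12 in siCtrl, and a 59 nt exon 0 in both, with 272 and 140 exclusion-only reads. The TIAL1 exons assessed were thus mostly skipped in both groups.

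RBM5, which acts on exons of apoptosis genes while the spliceosome assembles, had a coding exon called lower and another called higher. Exon 8 of the principal transcript RBM5-201 is 61 nt long, at chr3:50104248-50104308 (hg38, plus strand), and exon 6 is 74 nt long, at chr3:50100532-50100605. Neither is a multiple of 3. Their sequences are given as above because the called changes lie at them, and the third line runs across the junction that leaves exon 8 out, from 15 bases before it to the first stop in frame, with the stop in capitals.
RBM5 exon 8: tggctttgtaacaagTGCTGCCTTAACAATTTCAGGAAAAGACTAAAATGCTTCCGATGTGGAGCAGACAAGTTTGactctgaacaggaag
RBM5 exon 6: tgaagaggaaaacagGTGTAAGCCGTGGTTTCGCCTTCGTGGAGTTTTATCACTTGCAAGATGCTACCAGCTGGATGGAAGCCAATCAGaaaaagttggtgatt
RBM5 exon 7 joined to exon 9: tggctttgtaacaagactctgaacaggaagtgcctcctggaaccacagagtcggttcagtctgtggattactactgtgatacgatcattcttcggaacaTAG

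RBM5 exon 8 had ψ of 0.43 in siSNRPB2 (0.32 to 0.55) and 0.92 in siCtrl (0.77 to 0.99), a difference of -0.49 with a Bayes factor of 1e+12. The reads were 49 inclusion-only, 25 exclusion-only and 77 either in siSNRPB2, against 36, 0 and 42 in siCtrl. Skipping of this exon was thus read directly in siSNRPB2 and in no read of siCtrl. Without it the frame meets a stop that begins 85 nt after the junction, after 217 codons in place of 815.

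RBM5 exon 6 went the other way and was mostly kept in both groups. Its ψ was 0.98 in siSNRPB2 (0.94 to 1) and 0.80 in siCtrl (0.71 to 0.89), with a Bayes factor of 85.77, and in siSNRPB2 it was held by 221 reads and skipped by 0, against 207 and 8 in siCtrl. Without exon 6 the frame holds 150 codons and ends 42 nt past the junction. Skipping was read 8 times in all, each in siCtrl. As a share of informative reads, inclusion was 100% in siSNRPB2 (Clopper-Pearson 95% interval 98.3 to 100) and 96.3% in siCtrl (92.8 to 98.4).

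Exon 16 of RBM5, of 85 nt, fell short of the threshold. Its ψ was 0.81 in siSNRPB2 (0.72 to 0.89) and 0.94 in siCtrl (0.86 to 0.98), and its Bayes factor 1.45, and it was skipped by 10 reads in siSNRPB2 and 3 in siCtrl. An exon of 64 nt from a nonsense-mediated decay transcript was at 0 in both, with 215 and 251 exclusion-only reads. A 70 nt exon had ψ of 0.03 and 0.01.

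RBM6, the neighbour and relative of RBM5 on chromosome 3, had 1 of its 5 assessed exons called. Exon 7 of RBM6-201 is 75 nt, or 25 codons, at chr3:50048245-50048319 (hg38, plus strand), and is the only called exon that keeps the frame. In the event measured, its upstream neighbour is exon 2 and not exon 6, so the event spans an upstream intron of 85559 nt. The sequence follows with those flanks.
RBM6 exon 7: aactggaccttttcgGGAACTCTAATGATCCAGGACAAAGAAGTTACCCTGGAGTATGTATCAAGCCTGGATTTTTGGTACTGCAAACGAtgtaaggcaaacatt

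RBM6 exon 7 had ψ of 0.60 in siSNRPB2 (0.46 to 0.75) and 0.98 in siCtrl (0.95 to 1), a difference of -0.38 with a Bayes factor of 1e+12. It had 91 inclusion-only and 252 either-class reads in siSNRPB2, against 201 and 132 in siCtrl. No exclusion-only read was seen in either file, so this ψ rests on the reads of the exon set against reads of its flanks, 0.361 inclusion-only reads per either-class read in siSNRPB2 and 1.52 in siCtrl. Reads fitting neither isoform were by far the most, 6286 and 7054.

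Exon 6 of RBM6, of 74 nt, was mostly left out between exons 2 and 7, with ψ of 0.03 in siSNRPB2 (0 to 0.06) and 0.11 in siCtrl (0.05 to 0.17) and a Bayes factor of 7.79. In a second event with another upstream exon it had ψ of 0.15 and 0.40, a Bayes factor of 4.05, and 2 reads that held it in siSNRPB2, against 48 in siCtrl. That second event had 0 reads that skipped the exon in siSNRPB2 and 34 in siCtrl, so its siSNRPB2 value rests on 2 informative reads. Both events lie under the threshold. Exon 3 was at 0.99 in both groups, in forms of 1551 and 1279 nt, and a 54 nt exon was at 0 in both. The RBM6 and RBM5 loci overlap on the same strand, and the called exons of both genes lie outside the overlap. The upstream flanking exon of the RBM5 exon 6 event starts at 50099982, before the end of RBM6 at 50100045, so that flank reaches into the overlap.

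RBM10, the third relative, is known for an isoform difference at exon 4, which is 231 nt or 77 codons long in RBM10-203. That exon had ψ of 0.39 in siSNRPB2 (0.34 to 0.44) and 0.44 in siCtrl (0.39 to 0.49), with a Bayes factor of 0.26. In siSNRPB2, 245 reads held the exon and 26 skipped it, against 335 and 44 in siCtrl. Both isoforms were thus read in both groups, with overlapping intervals. A 98 nt exon had ψ of 0.03 and 0.02.

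EWSR1, a FET protein, had a change of high Bayes factor and small size. The 168 nt exon at chr22:29282390-29282557 (hg38, plus strand), exon 7 of EWSR1-208, codes for 56 residues of the low-complexity amino-terminal part and keeps the frame. It is printed because it is the deepest exon of the set at which skipping was read in siSNRPB2 and in no read of siCtrl.
EWSR1 168 nt exon: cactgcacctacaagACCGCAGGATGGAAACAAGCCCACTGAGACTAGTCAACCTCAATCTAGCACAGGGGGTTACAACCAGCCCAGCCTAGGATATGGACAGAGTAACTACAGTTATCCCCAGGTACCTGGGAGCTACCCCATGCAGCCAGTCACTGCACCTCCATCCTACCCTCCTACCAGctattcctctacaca

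EWSR1 exon 7 had ψ of 0.92 in siSNRPB2 (0.90 to 0.94) and 1.00 in siCtrl (0.99 to 1), a difference of -0.08 with a Bayes factor of 1e+12. The reads were 1829 inclusion-only, 46 exclusion-only and 2340 either in siSNRPB2, against 2962, 0 and 3973 in siCtrl. The difference missed the minimum of 0.1, so the exon was not called. As a share of informative reads, inclusion was 97.5% in siSNRPB2 (Clopper-Pearson 95% interval 96.7 to 98.2) and 100% in siCtrl (99.9 to 100). Without the exon the EWSR1-208 frame has 605 codons in place of 661 and the same stop. The other EWSR1 exons differed by 0.01: small exons of 18 and 15 nt had ψ of 0.01 in siSNRPB2 and 0 in siCtrl, and a 2994 nt stretch of a retained-intron transcript had 0.07 and 0.06. The 18 nt exon is exon 5 of EWSR1-208, so the 661 codons include it. It was held by 0 reads in both groups and skipped by 71 in siSNRPB2 and 254 in siCtrl.

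TAF15, another FET protein, had 2 overlapping forms of exon 4 called higher and exon 8 called lower. Exon 4 of TAF15-215 is 85 nt, at chr17:35820164-35820248 (hg38, plus strand), and a form with an earlier 5' splice site is 76 nt, at chr17:35820164-35820239. They share their start, and their reads overlap. Exon 8 is 35 nt, at chr17:35833907-35833941. None of the 3 lengths is a multiple of 3. The sequences of the called exons 4 and 8 follow, and the last line runs from exon 7 into exon 9 to the first stop, in capitals.
TAF15 exon 4, 85 nt: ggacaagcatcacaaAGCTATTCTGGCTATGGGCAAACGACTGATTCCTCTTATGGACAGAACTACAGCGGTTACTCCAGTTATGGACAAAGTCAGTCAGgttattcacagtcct
TAF15 exon 8: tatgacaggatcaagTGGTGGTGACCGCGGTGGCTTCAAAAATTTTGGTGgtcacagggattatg
TAF15 exon 7 joined to exon 9: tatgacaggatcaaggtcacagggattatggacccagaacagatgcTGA

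TAF15 exon 4 had ψ of 0.74 in siSNRPB2 (0.65 to 0.82) and 0.44 in siCtrl (0.39 to 0.50), a difference of 0.30 with a Bayes factor of 1e+12. Its reads were 400 inclusion-only and 696 either in siSNRPB2, against 340 and 990 in siCtrl. The 76 nt form had ψ of 0.48 (0.41 to 0.55) and 0.32 (0.28 to 0.37), with 227 and 222 inclusion-only reads and a Bayes factor of 96.78. The longer form thus carried 173 inclusion-only reads more than the shorter one in siSNRPB2 and 118 more in siCtrl, and both forms moved the same way.

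TAF15 exon 8 had ψ of 0.56 in siSNRPB2 (0.45 to 0.68) and 0.80 in siCtrl (0.67 to 0.93), a difference of -0.24 with a Bayes factor of 14.15. It had 104 inclusion-only and 573 either-class reads in siSNRPB2, against 180 and 689 in siCtrl, and its intervals touch at 0.68 and 0.67. Leaving it out ends the frame 32 nt after the junction, with 212 codons in place of 592. No exclusion-only read was seen at exon 4 or exon 8 in either file. A 92 nt exon upstream had ψ of 0 in siSNRPB2 and 0.04 in siCtrl, with 0 and 10 inclusion-only reads beside 120 and 109 exclusion-only reads, and a Bayes factor of 1.32.

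**Figure D3:**
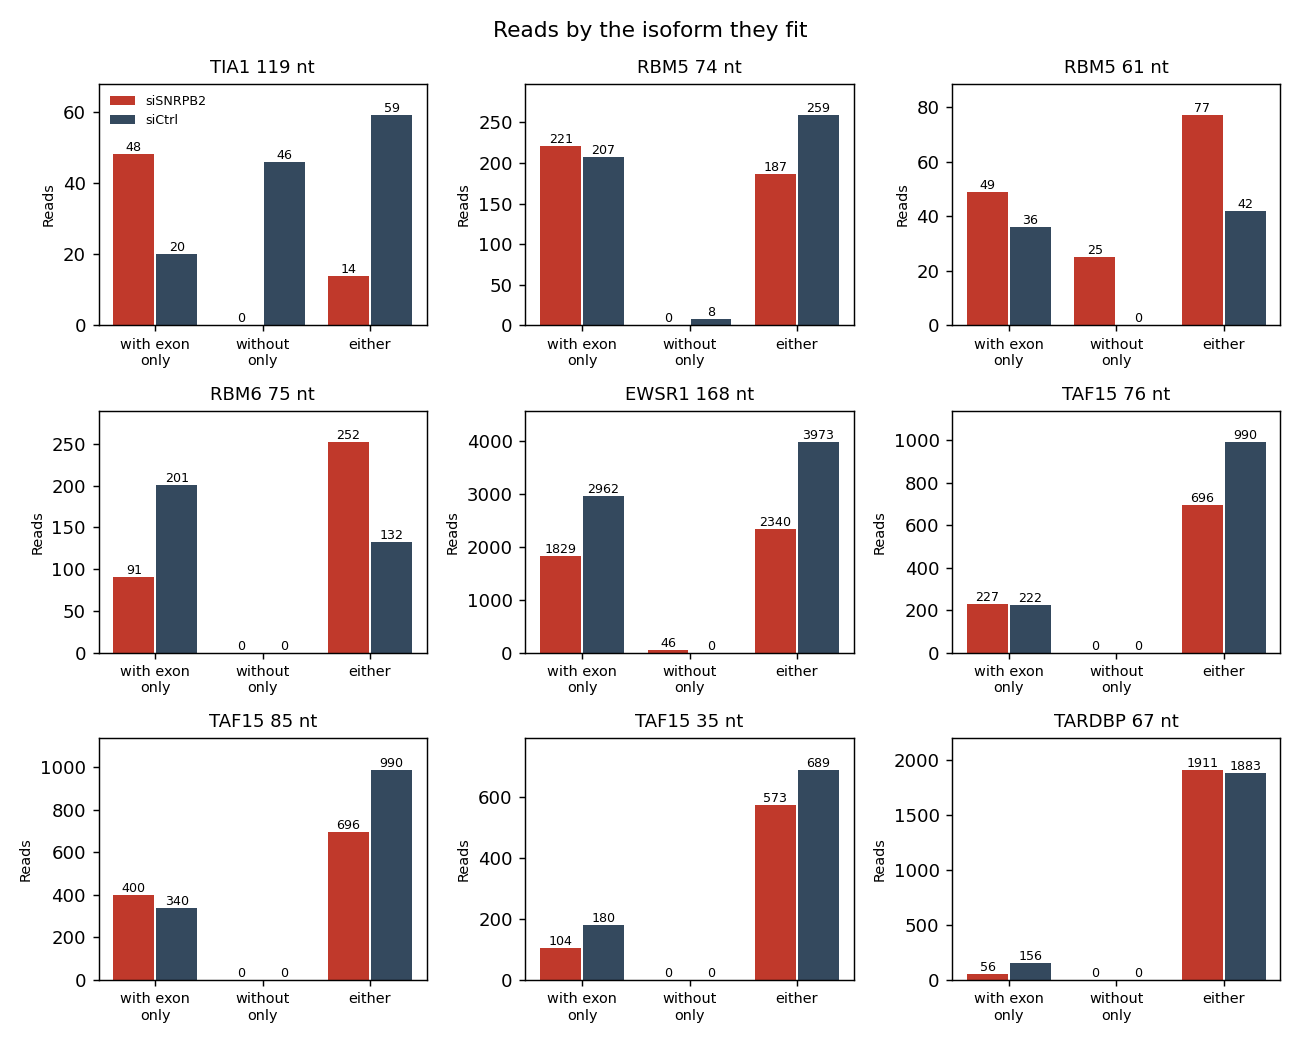
Reads of the inclusion-only, exclusion-only and either class at the called exons and at EWSR1 exon 7, in siSNRPB2 and in siCtrl. Exclusion-only reads appear in 1 file each at the TIA1 exon (0 in siSNRPB2, 46 in siCtrl), RBM5 exon 6 (0 and 8), RBM5 exon 8 (25 and 0) and EWSR1 exon 7 (46 and 0).

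TARDBP, which encodes TDP-43, was called at 1 of 7 assessed exons, and that exon lies in the 3' UTR of the principal transcript. A 67 nt stretch at chr1:11023263-11023329 (hg38, plus strand) is an exon of TARDBP-211 that falls inside exon 6 of the principal transcript TARDBP-201. Its ψ was 0.08 in siSNRPB2 (0.06 to 0.10) and 0.22 in siCtrl (0.19 to 0.26), a difference of -0.14 with a Bayes factor of 1e+12. It had 56 inclusion-only reads beside 1911 either-class reads in siSNRPB2, against 156 beside 1883 in siCtrl. No exclusion-only read was seen. Reads fitting neither isoform were by far the most, 7446 in siSNRPB2 and 8336 in siCtrl. A transcript with the whole exon 6 is neither isoform of this event. The ψ values here are therefore not fractions of all TARDBP transcripts.

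Longer exons of 137 and 169 nt end at the same base and hold the 67 nt stretch. They too lie inside exon 6 of TARDBP-201, so the same limit applies to their ψ. The 137 nt exon had ψ of 0.11 in siSNRPB2 (0.09 to 0.13) and 0.18 in siCtrl (0.15 to 0.20), with a Bayes factor of 2389 and a difference of -0.07 under the minimum. The 169 nt exon had ψ of 0.13 and 0.17, with a Bayes factor of 5.68. The inclusion-only reads of the shared 67 nt were the fewer ones in siSNRPB2, while the 169 nt exon had 178 inclusion-only reads beyond those of the 67 nt exon in siSNRPB2 and 156 in siCtrl.

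The coding exons of TARDBP-201 that were assessed, exons 3 and 5, differed little. Exon 3, of 164 nt, had ψ of 1 in both groups, and exon 5, of 171 nt, had 0.86 in siSNRPB2 and 0.88 in siCtrl. No exclusion-only read was seen at either exon. Alternative exons of 123 and 132 nt were at 0 and 0.01 in siSNRPB2 and at 0 and 0 in siCtrl. Of the assessed TARDBP exons, 5 are also annotated in AL109811.4, a gene model on the same strand, so their reads cannot be told apart between the 2 models.

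Across the 8 genes, 3 of the called exons had exclusion-only reads in at least 1 file, the TIA1 exon of 119 nt and the RBM5 exons of 74 and 61 nt. The other 5 had none, and 14 of the 35 assessed exons had none in all. In addition, 13 assessed exons in 6 genes share a boundary with another assessed exon of the gene, so they are not independent measurements. Nearest to the threshold among called exons were TARDBP by difference, at -0.14, and TAF15 exon 8 by Bayes factor, at 14.15. Past the minimum difference but not the Bayes factor were RBM5 exon 16, at -0.13 with a Bayes factor of 1.45, and the TIA1 exon of 33 nt, at -0.18 with 0.84. Past the Bayes factor but not the difference were EWSR1 exon 7, at -0.08, and the TARDBP exon of 137 nt, at -0.07. RBM6 exon 6 missed both, at -0.08 with a Bayes factor of 7.79.

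The amount of message was compared through the inclusion-only, exclusion-only and either-class reads together on each gene's deepest event, scaled to 1000000 such reads per file. For EWSR1 that event is the one of exon 7, and for TAF15 the one of exon 4. Their ratios therefore use the same reads as those ψ values. EWSR1 stood at 257.6 scaled reads in siSNRPB2 and 375.3 in siCtrl, a log2 ratio of -0.54 (95% counting interval -0.60 to -0.49). TIAL1 stood at 127.2 in siSNRPB2 and 93.94 in siCtrl on the event of its 59 nt exon, a log2 ratio of 0.44 (0.35 to 0.53). That event held 1809 either-class reads in siSNRPB2 and 1596 in siCtrl, before scaling. The next deepest TIAL1 event, of the 62 nt exon, held 1392 and 1482, so the unscaled direction differed between events. On their deepest events EWSR1 and TIAL1 lay furthest from 0 among the 8, in opposite directions, with no called exon in either. Over 3408 genes with at least 1000 reads on average the SD of the log2 ratio was 0.264, and a single value per group gives no replicate check. In bulk RNA, fewer cells that make a message and less message per cell cannot be told apart.

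The genes with called exons stayed within that SD. TIA1 and RBM10 have fewer reads than the genes it was taken over, and over all 10464 genes the SD was 0.785. TIA1 had 512 reads in siSNRPB2 and 519 in siCtrl, a log2 ratio of 0.16 (-0.02 to 0.34). RBM5 had -0.07, RBM6 0.00, TAF15 -0.10 and TARDBP 0.15 on the same scale, and RBM10, which has none, had -0.09. The deepest RBM5 event, that of its 64 nt exon, lies inside the overlap of the RBM6 and RBM5 loci. The part of RBM6 transcripts in its reads was not tested. With reads summed over all events of a gene, the TIAL1 log2 ratio was 0.24, inside the SD of 0.264, and that of TIA1 -0.03.

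**Figure D4:**
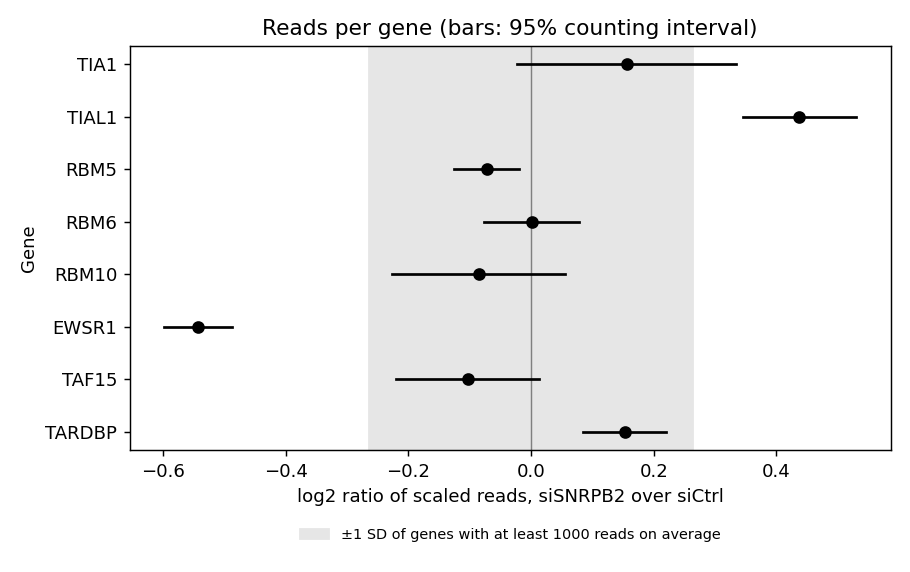
Log2 ratio of scaled reads per gene, siSNRPB2 over siCtrl (horizontal axis), with bars for the 95% counting interval and grey for 1 SD of genes with at least 1000 reads on average. On the deepest event of each gene, EWSR1 at -0.54 and TIAL1 at 0.44 lie outside the grey band, and the other 6 genes inside it. TIA1 and RBM10 had fewer than 1000 reads in each file.

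Genes that work with these proteins were described through 3 lists, chosen with earlier results of these data known. For background, 7.61% of all 18682 assessed exons were called lower and 7.13% higher. Among 15 stress granule genes, 12 had an assessed exon, and of 59 such exons 1 was called lower and 3 higher. PRRC2C, a granule protein, had an exon of 53 nt at ψ of 0.52 in siSNRPB2 (0.45 to 0.60) and 0.23 in siCtrl (0.18 to 0.28), and a 49 nt form of it at 0.37 and 0.17. ATXN2, the ataxin known from spinocerebellar ataxia, had a 72 nt exon at 0.80 and 0.54, with a Bayes factor of 11.04. The PRRC2C exon of 53 nt was held by 126 reads and skipped by 43 in siSNRPB2, against 76 and 117 in siCtrl. The ATXN2 exon was held by 108 reads in siSNRPB2 and 122 in siCtrl and skipped by 0 in both. Among 9 genes of FET or paraspeckle proteins, 5 had an assessed exon, and of 25 exons 1 was called lower and 1 higher, both in MATR3, a nuclear matrix protein. Its 82 nt exon had ψ of 0.91 in siSNRPB2 (0.80 to 0.98) and 0.35 in siCtrl (0.26 to 0.45), and its 42 nt exon 0.89 and 0.99. The 82 nt exon was held by 202 reads and skipped by 1 in siSNRPB2, against 80 and 0 in siCtrl, so its lower ψ in siCtrl rests on no skipping read. The 42 nt exon was held by 607 reads and skipped by 50 in siSNRPB2, against 684 and 5 in siCtrl.

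Of 14 genes reported elsewhere as targets of these regulators, 12 had an assessed exon, and of 52 exons 10 were called lower and 3 higher. The shares over all assessed exons were 7.61% lower and 7.13% higher. With at least 5 exclusion-only reads over both files, 5 exons of this list were called lower and 3 higher. All assessed exons of these genes were counted, not the reported target exons alone. MADD, a regulator of death receptor signalling, had a 102 nt exon at ψ of 0.44 in siSNRPB2 (0.35 to 0.54) and 0.98 in siCtrl (0.92 to 1). CFLAR, which encodes the caspase inhibitor c-FLIP, had a 111 nt exon at 0.05 (0.01 to 0.10) and 0.51 (0.38 to 0.65), held by 2 reads and skipped by 42 in siSNRPB2, against 32 and 22 in siCtrl. POLDIP3, known as a splicing target of TDP-43, had a 67 nt exon at 0.50 (0.37 to 0.66) and 0.89 (0.78 to 0.96), held by 39 reads and skipped by 0 in siSNRPB2, against 113 and 2 in siCtrl. The MADD exon was held by 109 reads in siSNRPB2 and 243 in siCtrl and skipped by 0 in both. The median ψ difference was 0 in each of the 3 lists and 0 over all assessed exons. Nothing particular to the lists is read from these counts.

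The exons whose pair of ψ values lay nearest to those of the most shifted exons were found by straight distance over the 2 groups, among assessed exons of other genes with at least 50 informative reads per file. Nearest to the TIA1 exon of 119 nt were exons of SYNRG (ψ 0.87 in siSNRPB2 and 0.14 in siCtrl, distance 0.071), PTBP2 (0.97 and 0.15, distance 0.078) and OSBPL6 (0.97 and 0.19, distance 0.112). PTBP2 is a splicing repressor best known in neurons, and its exon here is the 34 nt one at chr1:96806419-96806452. Nearest to RBM5 exon 8 were exons of SUSD5 (0.43 and 0.92, distance 0), CEACAM19 (0.43 and 0.91, distance 0.01) and MBD5 (0.43 and 0.93, distance 0.01). These 3 had no exclusion-only reads in either file, whereas RBM5 exon 8 had 25 in siSNRPB2.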

How the data were processed

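The 4 libraries were made from total RNA with a stranded kit, per the labels' protocols. The submitters' processing notes name STAR 2.7 and the build hg38. Per the file headers, the authors' inclusion levels come from MISO and are deposited as a fraction with an interval, beside the count of reads in each class of compatibility. The authors' deposited comparison holds a Bayes factor per event, a ratio that reaches at most 1e+12, and the ψ difference, a signed score in which siCtrl is subtracted from siSNRPB2. Not given in the sources used here are the MISO version, its annotation and how the 2 libraries of a group were joined.

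Each skipped exon was represented by its event with the most informative reads, at least 20 per file. Calls needed both a difference of at least 0.1 and a Bayes factor no lower than 10. All 8 genes were named, with every called exon and each gene's most shifted one in full, and at most 3 called exons per list by size of difference. Other exons named were chosen after their values were seen. Genes, lists and thresholds were chosen with earlier results of these data known. Reads per gene used log2 with a pseudocount of 1. Frames were read on GENCODE release 29 transcripts. The choice of event per exon and the calls were tested on simulated data, and the intervals were not. Reads carry no molecular identifiers in the sources used here, so intervals cover counting error only. Values were computed in Python 3.11.15 with pandas 2.3.3, numpy 2.4.6 and scipy 1.17.1, and drawn with matplotlib 3.10.9.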

Additional observations from a re-analysis of the deposited data

How the results depend on the processing

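With a Bayes factor of at least 100, 2 exons of the 8 genes were called higher, without RBM5 exon 6 and the TAF15 form of 76 nt, and 3 lower, without TAF15 exon 8. With a difference of at least 0.2, 2 were called higher, without RBM5 exon 6 and the TAF15 form of 76 nt, and 3 lower, without the TARDBP exon of 67 nt. With at least 50 informative reads per file, 885 of 14080 assessed exons of all genes were called higher and 979 lower. At the minimum of 20 reads these were 1332 and 1422 of 18682. In the 8 genes, 29 exons were then assessed at the minimum of 50, with 3 called higher and 3 lower. The TIA1 exon of 119 nt and RBM5 exon 8 were no longer assessed. With at least 5 exclusion-only reads over both files, 1 exon of the 8 genes was called lower (RBM5 exon 8) and 2 higher (the TIA1 exon and RBM5 exon 6). Over all 18682 assessed exons, 807 were then called lower and 735 higher, and in the 3 lists 7 were called lower. The cause was not tested. As a share of informative reads the difference was 0 at 5 of the 8 called exons (RBM6 exon 7, TAF15 exon 8, both TAF15 forms of exon 4 and the TARDBP exon), which have no exclusion-only reads, and 0.037 at RBM5 exon 6. A change of threshold cannot alter a sign. Among called exons, only the TIA1 exon and the RBM5 exons have exclusion-only reads and could change sign as a read share, and none did. Only the TIA1 exon has a second event, where the sign was the same. The TIA1 exon had a difference of 0.61 as the median over its events and 0.697 as a read share, and RBM5 exon 8 had -0.338 as a read share. The uncalled TIA1 exon of 33 nt had 0.175 as the median over its events, against -0.18 in the event used. No paired analysis was possible because the files hold 1 value per group, and leaving out a library was not possible for the same reason. Among called exons, the TIA1 exon and RBM5 exon 8 had the fewest informative reads over both files, with 48 and 74 informative reads in siSNRPB2 and 66 and 36 in siCtrl.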

Other observations

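Reads that fitted neither isoform made up 12.6 to 58.1% of the reads on the deepest events of the 8 genes in siSNRPB2 and 13.1 to 60.3% in siCtrl. Over the whole files they were 61.2% in siSNRPB2 and 59.1% in siCtrl. In 6 of the 8 genes the share was lower in siSNRPB2 and in 2, EWSR1 and TAF15, it was higher, with TIAL1 at 16.7% in siSNRPB2 and 22.7% in siCtrl, and RBM10 at 20.9% and 27.2%. The files do not say where in the gene such reads lie.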
